A study of Homo sapiens with 2 samples.

Results

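The axon guidance families are cell surface and secreted signals that steer growing axons and migrating cells. The set described here holds 46 human genes chosen by name, with earlier results of these data known. It has 23 ligand genes (ephrins, semaphorins, Slits and netrins) and 23 receptor genes (Eph receptors, neuropilins, plexins, Robos, UNC5 receptors and DCC). They were read on the 2 arrays of the study, 1 for cells grown with SB-431542 and 1 for cells grown without it, among 19775 genes that the arrays measure by a probe set naming that gene alone. A probe set is a group of short probes for 1 transcript region. Of the 46 genes, 45 had such probe sets, 125 in all. EPHB2, an ephrin-B receptor gene, had none and is not analysed here.

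Eph receptors are tyrosine kinases that bind ephrins on the neighbouring cell. Ephrin-A ligands are tied to the membrane by a lipid anchor and ephrin-B ligands span it, and signals run into both cells, often ending in repulsion. Semaphorins signal through plexins, and most secreted class 3 semaphorins need a neuropilin as the binding partner. Slits bind Robo receptors, and netrins bind DCC and UNC5 receptors. Outside the nervous system the same families are known for roles in blood vessel growth, somite boundaries, the migration of muscle precursor cells and the innervation of muscle.

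The cells came from HUES9, an established human embryonic stem cell line, at passage 32. They formed embryoid bodies, floating aggregates of differentiating cells, for 10 days, and the cells that grew out of these on fibronectin in chemically defined medium were taken at outgrowth passage 5. SB-OG cultures were given SB-431542, which blocks the kinase of the receptors ALK4, ALK5 and ALK7 and so TGF-β, activin and nodal signals. The dose was 10 µM in the embryoid body stage and 1 µM in the outgrowth stage, and control-OG cultures received the solvent DMSO at 0.01%. Each array held RNA of 3 mixed samples of its condition, so there is 1 measurement per condition from 1 cell line, with no replicate spread and no test.

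Values are linear array intensities. Those under the background level, 27.6 on SB-OG and 32.6 on control-OG, were set to it before a difference was taken, so a gene above background on 1 array only has a bound, written "at least". A gene is represented by its probe set brightest on average over both arrays, called its brightest, unless another is named. Apart from that choice and the sums over cell type markers, no probe set's level is set against that of another. Differences between probe sets of 1 gene had a standard deviation (SD) of 0.46 on the log2 scale over 4930 genes and of 0.44 over 18 guidance genes. All differences are SB-OG minus control-OG. The 3′ to 5′ signal ratio, a sign of RNA integrity, was 0.958 on SB-OG and 0.995 on control-OG for GAPDH, and 1.55 on SB-OG and 1.65 on control-OG for ACTB.

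Of 45 guidance genes, 38 exceeded background on SB-OG, control-OG or both. SEMA6A, EPHA3, SEMA3F, SEMA3A, NTN4, SEMA3D, PLXNA2, EFNA5, EPHB3, PLXNB1 and EPHA7 were higher in SB-OG by 2-fold or more. NRP2, SLIT3, EFNB2, SLIT2, SEMA3E, SEMA5A and NRP1 were at least 2-fold lower, and 20 genes were not 2-fold apart. For 4 of these 20 (EFNA3, PLXNC1, NTN1 and UNC5C) the value is a bound, so that a larger difference is possible. Thus 11 of 38 were higher (28.9%), beside 12.4% of the 12499 genes that passed the same background filter, and 7 of 38 were lower (18.4%), beside 13% of those genes. The members were chosen with earlier results of these data known, so these shares only describe the set. The median log2 difference of the 38 was 0.00, beside -0.02 over all 12499. With the SB-OG array rescaled on its hybridisation controls, which adds 0.48 to each log2 difference, 13 guidance genes were higher and 5 lower, beside 24.4% and 7.25% of all genes. With the mean over all probe sets of a gene, 7 were higher and 7 lower, beside 8.59% and 9.65% of all genes. The calls of EPHA7, PLXNB1, SEMA3D and SEMA3F were lost there, each having other probe sets at or near background.

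**Figure D1:**
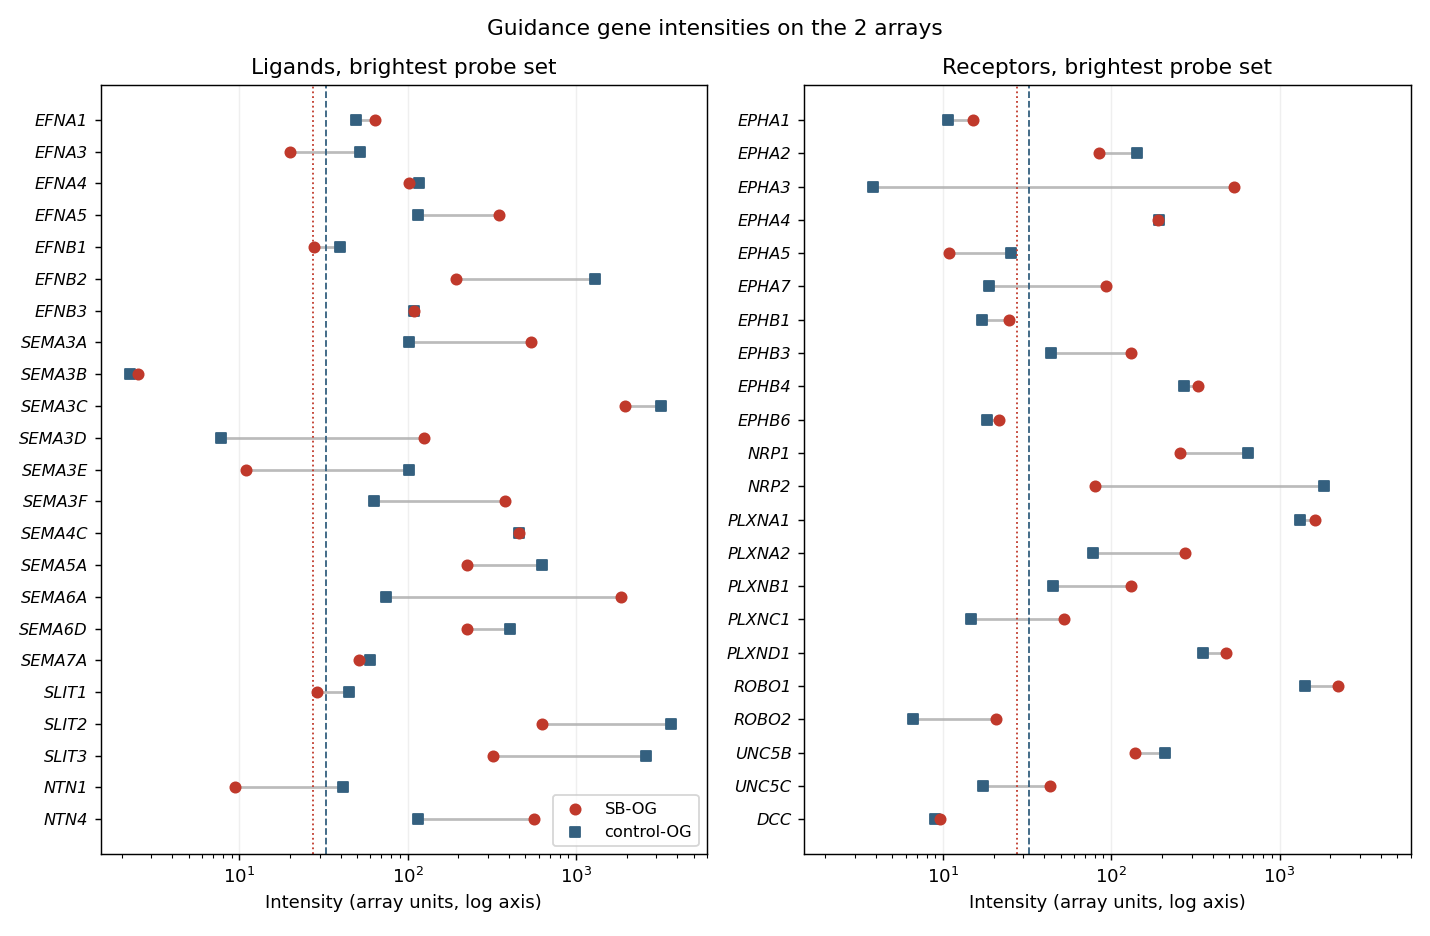
Intensity of the brightest probe set of each of the 45 guidance genes on the SB-OG array (red circles) and the control-OG array (blue squares), on a log axis in array units, with ligands on the left and receptors on the right. The dotted red and dashed blue lines mark the background levels of 27.6 on SB-OG and 32.6 on control-OG; SEMA6A and EPHA3 lie far to the right on SB-OG, and NRP2, SLIT3 and EFNB2 far to the left of control-OG.

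Ligand genes divided, with 6 of 22 above background higher and 5 lower, and a median log2 difference of -0.37. Among receptor genes 5 of 16 were higher and 2 lower, with a median of 0.44. Of all 12499 genes past the background filter, 12.4% were higher and 13% lower, with a median of -0.02. The receptor genes EPHA1, EPHA5, EPHB1, EPHB6, ROBO2 and DCC and 1 ligand gene, SEMA3B, were under background on both arrays. By the probe sets chosen for these 7, no value was over 24.8 on SB-OG (EPHB1) or over 25.3 on control-OG (EPHA5). A SEMA3B probe set shared with the microRNA gene MIR6872 was above background on both arrays and is described at the end. The semaphorin system had 6 genes higher and 4 lower of 17, the ephrin system 4 higher and 1 lower of 13, the Slit system none higher and 2 lower of 4, and the netrin system 1 higher and none lower of 4.

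**Figure D2:**
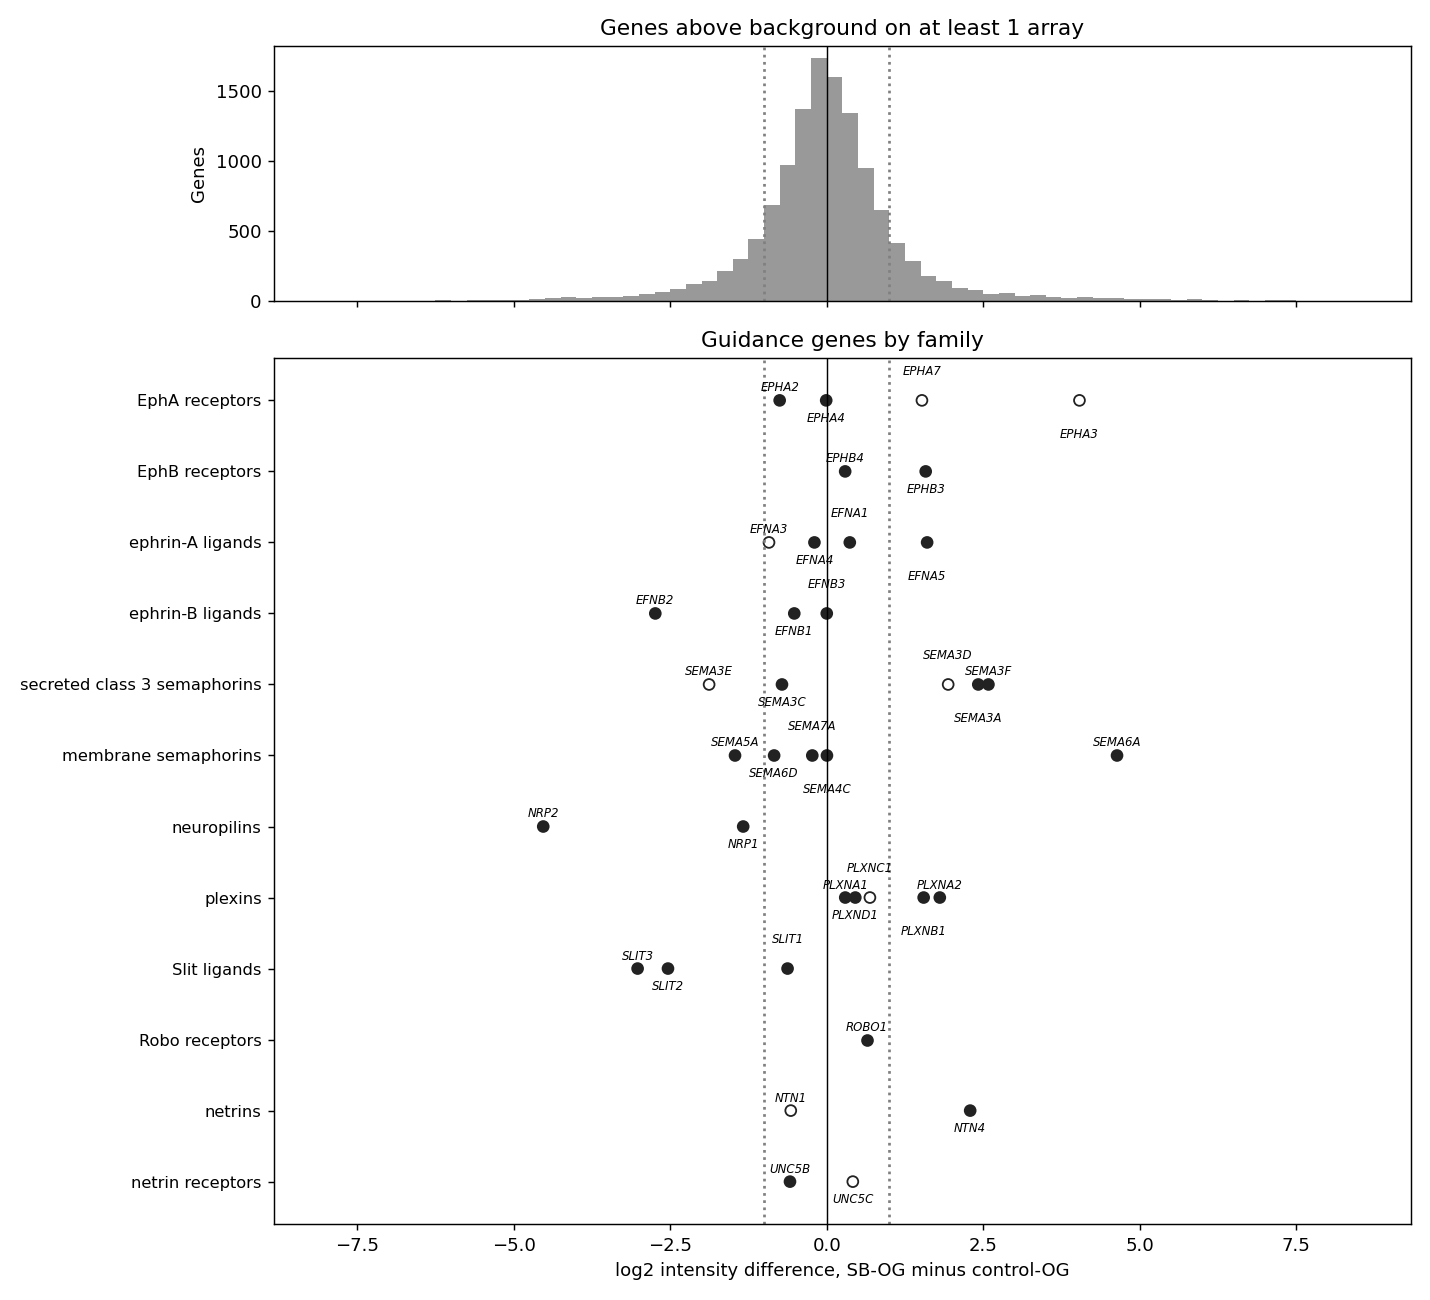
Top, histogram of the log2 intensity difference, SB-OG minus control-OG, over the 12499 genes past the background filter. Bottom, the same difference for the 38 guidance genes by family, filled where a gene was above background on both arrays and open where it was on 1 (a bound); dotted lines mark 2-fold, and SEMA6A at 4.64 and NRP2 at -4.53 are the outermost as plotted.

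The promoters of members far apart on the 2 arrays are shown because these genes stood toward the opposite ends of the set. They are the 3 members with the largest differences in each direction among those that have an entry in the RefSeq promoter table (GRCh38.p14), which covers 40 of the 46 genes. SEMA6A and SEMA3A have no entry there and are not shown, although their log2 differences, 4.64 and 2.42, were larger than that of NTN4, 2.29. Bounds were ranked at their value, so SEMA3D and SEMA3E, known by bounds only, could differ by more than some of those shown. Each sequence runs 5′ to 3′ on the gene's own strand from 250 bases before to 50 bases after the transcription start. SEMA3F has 3 listed starts and NTN4 2, and the first listed is printed. Capitals mark any match, on either strand, to CAGCTG (an E-box of the kind bound by myogenic factors), to CAGACA or its reverse complement TGTCTG (holding the short SMAD-binding motif), or to GGGCGG or its reverse complement CCGCCC (the GC box bound by SP1). CAGCTG is its own reverse complement, and matches may overlap.
EPHA3, chr3:89107371-89107670, plus strand, higher in SB-OG: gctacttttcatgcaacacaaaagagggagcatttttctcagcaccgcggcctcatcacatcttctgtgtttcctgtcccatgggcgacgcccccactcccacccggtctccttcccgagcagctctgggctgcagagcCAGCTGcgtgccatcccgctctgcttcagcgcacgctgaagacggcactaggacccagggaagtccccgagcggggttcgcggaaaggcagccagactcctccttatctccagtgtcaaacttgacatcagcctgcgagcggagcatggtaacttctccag
SEMA3F, chr3:50154808-50155107, plus strand, higher in SB-OG: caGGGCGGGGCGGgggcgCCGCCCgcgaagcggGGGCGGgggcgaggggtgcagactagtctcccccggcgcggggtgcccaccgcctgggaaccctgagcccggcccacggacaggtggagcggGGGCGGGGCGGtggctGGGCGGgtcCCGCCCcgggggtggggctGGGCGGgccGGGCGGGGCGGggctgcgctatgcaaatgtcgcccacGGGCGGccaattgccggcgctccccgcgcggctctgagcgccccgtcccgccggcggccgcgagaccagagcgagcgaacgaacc
NTN4, chr12:95791106-95791405, minus strand, higher in SB-OG: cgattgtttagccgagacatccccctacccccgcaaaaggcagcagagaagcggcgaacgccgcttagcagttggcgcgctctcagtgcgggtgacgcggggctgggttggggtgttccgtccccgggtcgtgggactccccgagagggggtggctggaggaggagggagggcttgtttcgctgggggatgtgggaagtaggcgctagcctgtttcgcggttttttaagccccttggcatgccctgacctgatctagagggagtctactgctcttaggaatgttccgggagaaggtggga
NRP2, chr2:205682251-205682550, plus strand, lower in SB-OG: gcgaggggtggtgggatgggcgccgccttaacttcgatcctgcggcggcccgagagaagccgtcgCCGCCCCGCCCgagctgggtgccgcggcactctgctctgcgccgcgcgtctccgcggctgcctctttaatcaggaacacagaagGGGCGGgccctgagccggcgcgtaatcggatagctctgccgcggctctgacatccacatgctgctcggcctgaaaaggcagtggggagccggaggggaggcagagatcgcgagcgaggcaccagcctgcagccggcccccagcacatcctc
SLIT3, chr5:169301090-169301389, minus strand, lower in SB-OG: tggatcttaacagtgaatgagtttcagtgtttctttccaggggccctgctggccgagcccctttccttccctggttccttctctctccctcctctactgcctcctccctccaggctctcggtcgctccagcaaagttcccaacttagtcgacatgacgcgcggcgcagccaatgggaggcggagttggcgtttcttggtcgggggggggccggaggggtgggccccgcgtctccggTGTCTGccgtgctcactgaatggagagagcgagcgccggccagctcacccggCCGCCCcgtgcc
EFNB2, chr13:106535613-106535912, minus strand, lower in SB-OG: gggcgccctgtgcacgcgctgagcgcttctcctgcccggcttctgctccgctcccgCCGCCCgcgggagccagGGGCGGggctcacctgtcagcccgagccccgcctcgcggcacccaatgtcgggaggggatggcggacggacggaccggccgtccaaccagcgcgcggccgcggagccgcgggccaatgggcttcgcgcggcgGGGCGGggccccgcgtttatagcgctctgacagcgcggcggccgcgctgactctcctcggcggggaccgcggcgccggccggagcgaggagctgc

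These windows differ in what they hold. The EPHA3 window had 1 CAGCTG, from base 140, and no GC box. The SEMA3F window had 12 GC box matches, overlaps counted, and a GC content of 81.3%. The NTN4 window held none of the 3 motifs. Of the lower genes, NRP2 and EFNB2 had 3 GC boxes each, and SLIT3 had 1 GC box and 1 TGTCTG. Among all 35116 listed promoters, 17.9% held CAGCTG, 16.9% CAGACA or its reverse complement and 45.0% a GC box. Of 61 promoters listed for 40 guidance genes, 7 held CAGCTG (11.5%), 11 held CAGACA or its reverse complement (18.0%) and 45 held a GC box (73.8%). The median GC content was 68.0% in these 61, against 58.7% in the whole table.

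SEMA6A had the largest difference among genes above background on both arrays; that of EPHA3 is a bound and may be larger. It encodes a membrane-bound semaphorin that binds PLXNA2 and PLXNA4 and is known to guide neuronal migration. Its brightest probe set had an intensity of 1848 on SB-OG, against 74.3 on control-OG, a 24.9-fold difference. Another probe set gave 1184 on SB-OG and 38.6 on control-OG, 30.7-fold higher. A further pair, above background on SB-OG only, were at least 6.44-fold and at least 5.08-fold higher, so all 4 of its probe sets above background were past 2-fold.

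SEMA5A, which has thrombospondin repeats and is known as both an attractant and a repellent, was on the other side among membrane semaphorins. It had 226 on SB-OG and 625 on control-OG, 2.76-fold lower, and its other probe sets were 2.35-fold and 3.81-fold lower. All 3 of its probe sets were thus lower in SB-OG by more than 2-fold. With the hybridisation control scaling the brightest came to -0.99 on the log2 scale. The other 3 of the 5 membrane semaphorins lay within 2-fold. SEMA4C, a ligand of PLXNB2 found in developing muscle, had 458 on SB-OG and 457 on control-OG. SEMA6D, a ligand of PLXNA1 in heart development, had 226 on SB-OG and 404 on control-OG. SEMA7A, a lipid-anchored semaphorin, had 51.1 on SB-OG and 60.005 on control-OG.

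Among the 6 secreted class 3 semaphorin genes, 3 were at least 2-fold higher, 1 lower, 1 within 2-fold and 1 under background. SEMA3F, a repellent that acts through NRP2, had 379.6 on SB-OG and 63.3 on control-OG, 5.99-fold higher. Its other 2 probe sets stayed under background on both arrays, at 9.52 and 8.67 on SB-OG and 1.16 and 5.88 on control-OG. SEMA3A, the growth cone collapsing factor that acts through NRP1, had 544 on SB-OG and 102 on control-OG, 5.35-fold higher. Further SEMA3A probe sets were at least 7.80-fold and at least 1.99-fold higher, the second with 64.9 on SB-OG and 1.79 on control-OG. All 3 SEMA3A probe sets were therefore brighter on SB-OG.

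SEMA3D was above background on SB-OG only, with 125 against 7.74 on control-OG, at least 3.84-fold higher. Its second probe set had 24.6 on SB-OG and 7.82 on control-OG, under background on both. SEMA3E, the ligand that binds PLXND1 without a neuropilin, went the other way, with 11.04 on SB-OG and 101.5 on control-OG, at least 3.68-fold lower. It has a single probe set, whose name ends in _x, the array maker's mark for probes that may match other transcripts, and with the background taken at the 99th percentile its bound was -0.39 on the log2 scale. SEMA3C, a ligand of both neuropilins known from the heart outflow tract, was bright on both arrays, with 1948 on SB-OG and 3198 on control-OG, 1.64-fold lower.

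SEMA3E, SEMA3A and SEMA3D are consecutive protein-coding genes on chromosome 7, and SEMA3C lies 3 protein-coding genes away from SEMA3E. Of these neighbours SEMA3A and SEMA3D were higher in SB-OG, SEMA3E was lower and SEMA3C within 2-fold. SEMA3F and SEMA3B have 3 protein-coding genes between them on chromosome 3. SEMA3F was 5.99-fold higher, and SEMA3B was under background on both arrays by its own probe set. The ephrin-A genes EFNA4, EFNA3 and EFNA1 are likewise consecutive on chromosome 1, and none was 2-fold apart, EFNA3 by a bound.

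Both neuropilin genes were lower in SB-OG. NRP2, the receptor for SEMA3F and a co-receptor for lymphatic VEGF signals, had 80.03 on SB-OG and 1847 on control-OG, 23.1-fold lower. It is the member with the most probe sets, 11, of which 9 were above background and 8 of these at least 2-fold lower. Of the other 4 above background on both arrays, the differences ran between 6.02-fold, with 31.6 on SB-OG and 190.3 on control-OG, and 12.6-fold, with 49.4 on SB-OG and 623 on control-OG. Those above background on control-OG only were at least 6.09-fold, 8.45-fold, 13.5-fold and 1.24-fold lower, the last with 24.3 on SB-OG and 34.1 on control-OG. With the mean of all its probe sets NRP2 came to -2.50 on the log2 scale, against -4.53 by the brightest.

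NRP1, the receptor for SEMA3A and a co-receptor of VEGF, had 256 on SB-OG and 647 on control-OG, 2.52-fold lower. A second NRP1 probe set had 43.9 on SB-OG and 259 on control-OG, 5.90-fold lower. Scaled on the hybridisation controls, the brightest NRP1 probe set came to -0.86 on the log2 scale, within 2-fold, and NRP2 stayed at -4.05.

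Of the 5 plexin genes in the set, 2 were at least 2-fold higher and none was lower. The 4 plexin genes outside the set, PLXNA3, PLXNA4, PLXNB2 and PLXNB3, had log2 differences of -0.17, -0.43, -1.17 and -1.28, those of PLXNA4 and PLXNB3 being bounds. PLXNA2, a receptor for SEMA6A and partner of neuropilins, had 273 on SB-OG and 78.0 on control-OG, 3.50-fold higher, and another probe set was 4.22-fold higher. PLXNB1, the receptor of SEMA4D, had 132 on SB-OG and 45.1 on control-OG, 2.92-fold higher. Its dimmer probe set had 31.6 on SB-OG and 5.38 on control-OG, which gives no fold because the SB-OG value lies under the control-OG background level. Set to the background levels, this probe set came to -0.05 on the log2 scale. PLXNC1, the receptor of SEMA7A, was above background on SB-OG only. Its probe set with the highest mean had 52.6 on SB-OG and 14.8 on control-OG, at least 1.61-fold higher, and another had 147 on SB-OG and 1.41 on control-OG, at least 4.51-fold higher.

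The other 2 plexins differed less. PLXNA1, a signalling partner of neuropilins, was bright on both arrays, with 1623 on SB-OG and 1322 on control-OG. PLXND1, the SEMA3E receptor of endothelium and other tissues, had 479.8 on SB-OG and 349.7 on control-OG. PLXNA1 had a dimmer probe set of opposite sign, at -0.36 on the log2 scale. A dimmer PLXND1 probe set, with 27.9 on SB-OG and 20.6 on control-OG, came to -0.22 only through the higher background level of control-OG.

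Of 10 Eph receptor genes with a probe set, 4 were under background on both arrays and have no difference. Of the other 6, 3 were at least 2-fold higher and none was 2-fold lower. EPHA3, a receptor of ephrin-A ligands found in embryonic mesoderm and muscle, had 535 on SB-OG and 3.85 on control-OG, at least 16.4-fold higher. A second EPHA3 probe set had 74.03 on SB-OG and 15.6 on control-OG, at least 2.27-fold higher, and the third was under background on both. EPHA7, a receptor with known truncated forms that shape cell adhesion, had 93.5 on SB-OG and 18.8 on control-OG, at least 2.87-fold higher. The other EPHA7 probe sets had 41.5, 26.8 and 9.87 on SB-OG, against 2.52, 1.14 and 4.32 on control-OG. All 4 were brighter on SB-OG, but with the background at the 99th percentile EPHA7 came to 0.84 on the log2 scale.

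EPHB3, a receptor of ephrin-B ligands, had 130.5 on SB-OG and 43.6 on control-OG, 2.99-fold higher, and its second probe set was 3.16-fold higher. EPHB4, the venous endothelial receptor for EFNB2, had 329.8 on SB-OG and 269 on control-OG, with a second probe set at -0.34 on the log2 scale. EPHA4, which binds ephrins of both classes, had 190.01 on SB-OG and 191 on control-OG, and its other probe sets above background ran between -0.42 and 0.27. EPHA2, a receptor prominent in epithelium and tumours, had 85.1 on SB-OG and 143 on control-OG, 1.68-fold lower.

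Ephrin genes were mostly within 2-fold, with 1 member far out on each side. EFNA5, a ligand of EPHA3, EPHA4 and EPHA7, had 350.9 on SB-OG and 115 on control-OG, 3.04-fold higher. Its other probe sets above background were 5.29-fold and 2.50-fold higher, so all 3 were past 2-fold. EFNB2, the arterial ligand of EPHB4, had 194 on SB-OG and 1296 on control-OG, 6.67-fold lower. The second EFNB2 probe set had 34.2 on SB-OG and 208 on control-OG, 6.08-fold lower.

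The other 5 ephrin genes were not 2-fold apart, EFNA3 by a bound. EFNA1, the chief ligand of EPHA2, had 63.9 on SB-OG and 49.5 on control-OG. EFNA4 had 102 on SB-OG and 117 on control-OG, and EFNB3, a ligand of the nervous system midline, had 109 on each array. EFNB1, whose loss causes craniofacial defects, had 27.9 on SB-OG and 39.9 on control-OG, both just above background. EFNA3 was above background on control-OG only, with 20.1 on SB-OG and 52.3 on control-OG, at least 1.89-fold lower.

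Of the 3 Slit genes, 2 were far lower in SB-OG and none was higher. SLIT3, a ligand made by mesenchymal and stromal cells in many organs, had 321 on SB-OG and 2609 on control-OG, 8.12-fold lower, and its second probe set was 3.94-fold lower. SLIT2, the midline repellent, had 629.5 on SB-OG and 3651 on control-OG, 5.80-fold lower. Further SLIT2 probe sets were 4.71-fold and 5.23-fold lower. SLIT1, mainly a gene of the nervous system, had 29.001 on SB-OG and 44.7 on control-OG.

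The Slit receptor ROBO1 was read by 1 probe set, with 2229.7 on SB-OG and 1425 on control-OG, 1.57-fold higher. ROBO2, the neighbour of ROBO1 on chromosome 3 with no protein-coding gene between them, was under background on both arrays in all 3 probe sets. With the hybridisation control scaling ROBO1 came to 1.12 on the log2 scale.

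The netrin system had 1 clear difference. NTN4, a netrin of basement membranes that binds laminin, had 566 on SB-OG and 116 on control-OG, 4.90-fold higher, by its only probe set. NTN1, the founding floor plate attractant, had 9.39 on SB-OG and 41.1 on control-OG by its probe set with the highest mean, and 41.8 on SB-OG and 7.78 on control-OG by another. Its probe sets thus contradict each other near background. UNC5B, a repulsive netrin receptor of endothelium and other tissues, had 139 on SB-OG and 209 on control-OG. UNC5C had 43.5 on SB-OG and 17.4 on control-OG, at least 1.33-fold higher. DCC was under background on both arrays in all 3 probe sets.

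Of the 18 genes at least 2-fold apart, 14 were read by a further probe set above background, and PLXNB1 was the one gene whose further probe set had the opposite sign, after the background levels were applied. In 9 of the 14 every probe set above background was past 2-fold, namely SEMA6A, EPHA3, EFNA5, EPHB3, NRP1, SEMA5A, SLIT2, SLIT3 and EFNB2. SEMA3D, SEMA3E, SEMA3F and NTN4 rest on 1 probe set above background each. Over all 24 guidance genes with another probe set above background, 6 had one of opposite sign, 5 of them within 2-fold by the brightest.

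**Figure D3:**
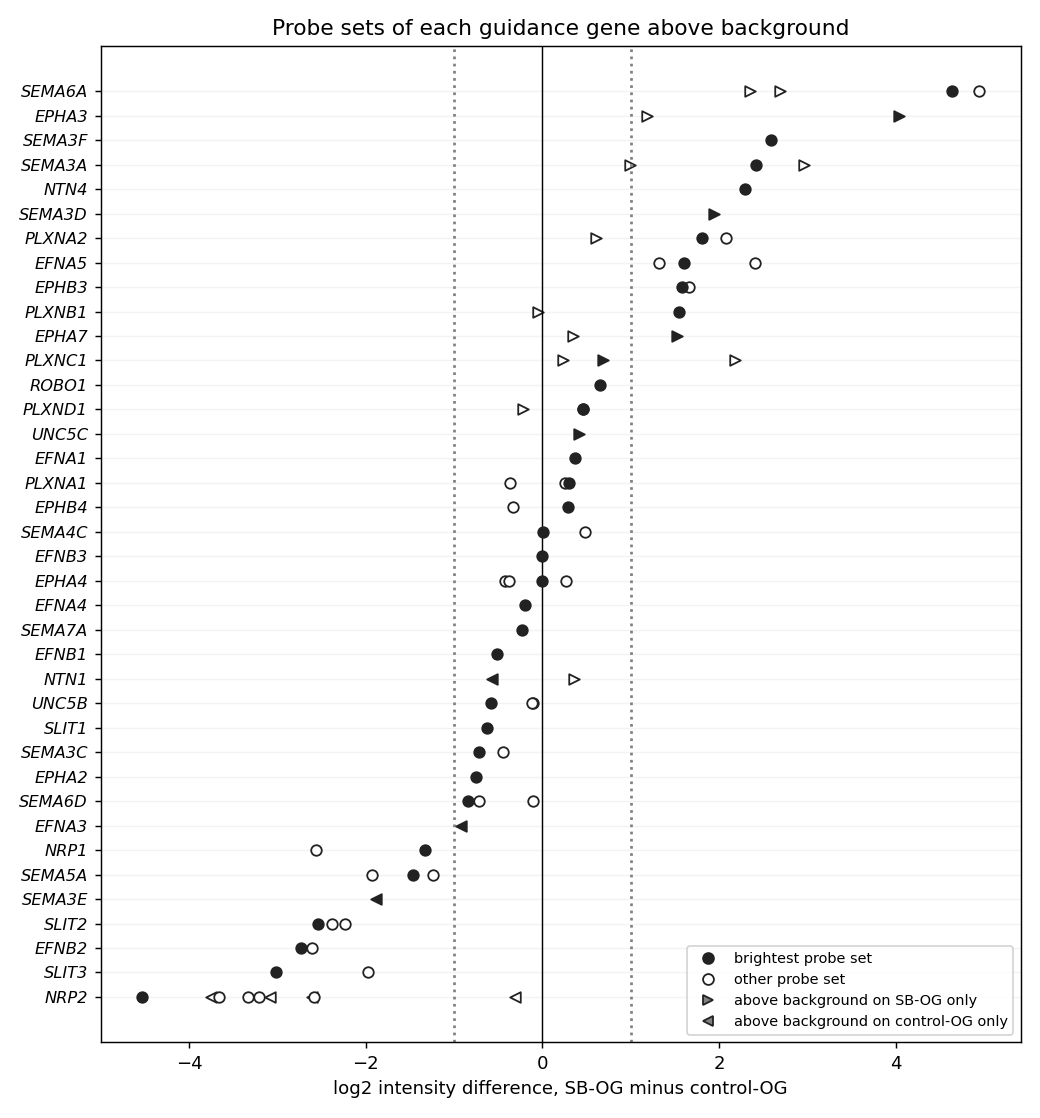
Log2 intensity difference, SB-OG minus control-OG, of every probe set above background on at least 1 array, for the 38 guidance genes in order of their brightest probe set (filled). Open symbols are other probe sets, triangles are bounds from probe sets above background on 1 array only, and dotted lines mark 2-fold; the probe sets of SEMA6A all lie above 2 and those of SLIT2 all below -2.

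Values of known partners are set side by side for 19 ligand and receptor pairs within the set. The pairs were chosen after the values were seen and leave out other known ones, so their counts only describe these 19. Of them, 3 had both partners at least 2-fold higher, namely SEMA6A with PLXNA2, and EFNA5 with EPHA3 and with EPHA7. In 3 pairs the partners were at least 2-fold apart in opposite directions. SEMA3A was 5.35-fold higher and NRP1 2.52-fold lower, SEMA3F was 5.99-fold higher and NRP2 23.1-fold lower, and EFNB2 was 6.67-fold lower and EPHB3 2.99-fold higher. In 8 pairs 1 partner was past 2-fold, among them SLIT2 and SLIT3 with ROBO1, and in 5 neither was.

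**Figure D4:**
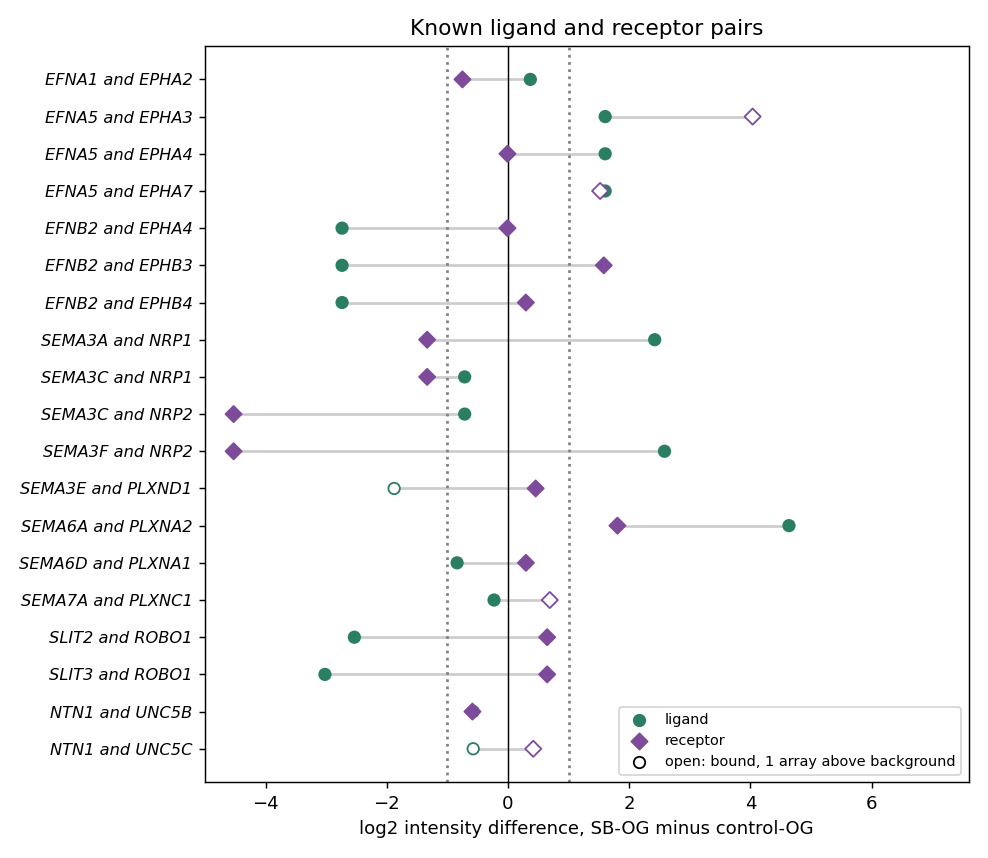
Log2 intensity difference, SB-OG minus control-OG, of the ligand (circle) and the receptor (diamond) in 19 pairs known to bind, joined by a line, with open symbols for genes above background on 1 array only. Dotted lines mark 2-fold; SEMA3F and NRP2 are the furthest apart, at 2.58 and -4.53, while SEMA6A and PLXNA2 lie on the same side at 4.64 and 1.81.

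Of 28 further genes of the same families, 15 were above background, with 3 at least 2-fold higher and 3 lower (median log2 difference -0.34). These are 20% each way, beside 12.4% higher and 13% lower of all genes past the background filter. The 3 higher family genes were semaphorin genes above background on SB-OG only. SEMA5B had 124 on SB-OG and 3.51 on control-OG, at least 3.81-fold higher, SEMA6B was at least 3.15-fold higher and SEMA3G at least 2.24-fold. Other SEMA6B probe sets above background came to 0.19 and at least 0.98 on the log2 scale. The lower ones were SEMA4B, with 39.1 on SB-OG and 179 on control-OG, 4.59-fold lower, PLXNB3, at least 2.43-fold lower, and PLXNB2, the SEMA4C receptor, with 1059 on SB-OG and 2376 on control-OG, 2.24-fold lower. The 13 under background on both arrays were the endothelial Robo gene ROBO4, the netrin receptor genes UNC5A and UNC5D, the netrin-G genes NTNG1 and NTNG2, NTN5, DSCAM, EPHA6, EPHA8, EPHA10, SEMA4A, SEMA4D and SEMA6C.

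Of 34 genes that carry guidance signals inside the cell, 31 had a probe set and 27 were above background, with 8 at least 2-fold higher and 2 lower (median 0.54). These are 29.6% and 7.41%, beside 12.4% and 13% of all genes past the background filter. MICAL1, a flavoprotein that oxidises actin downstream of plexins, had 1450.1 on SB-OG and 144 on control-OG, 10.1-fold higher, whereas its relative MICAL2 had 218 on SB-OG and 995 on control-OG, 4.57-fold lower. The collapsin response mediators also divided. DPYSL5 and CRMP1 were at least 8.62-fold and at least 8.12-fold higher, with 281 and 265 on SB-OG against 18.001 and 19.3 on control-OG, while DPYSL3 was 3.25-fold lower and DPYSL2 1.31-fold. ABLIM1, an actin-binding relative of a worm netrin pathway gene, was 5.03-fold higher. FYN, ENAH, ABL2 and SRGAP3 were the others past 2-fold, SRGAP3 by a bound of 2.01-fold. Another SRGAP3 probe set, with 16.4 on SB-OG and 33.7 on control-OG, just above background there, came to a bound of -0.29 on the log2 scale.

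Of 24 co-receptors and cofactors, 22 had a probe set and 18 were above background, with 6 at least 2-fold higher and 7 lower (median -0.65). These are 33.3% and 38.9%, beside 12.4% and 13% of all genes past the background filter. KDR, the VEGF receptor that works with NRP1, had 18.7 on SB-OG and 933 on control-OG, at least 33.8-fold lower. Heparan sulphate proteoglycans, which bind Slits, went both ways. SDC4 was 6.65-fold lower, with 175 on SB-OG and 1165 on control-OG, and SDC2 was 4.60-fold higher, with 4179 on SB-OG and 909 on control-OG. L1CAM, an adhesion molecule in the SEMA3A receptor complex, was 4.88-fold higher. FLRT3, a ligand of UNC5 receptors and partner of ROBO1, was 3.38-fold lower, and NRCAM, a partner of NRP2, was at least 2.98-fold higher. A dimmer NRCAM probe set, with 29.6 on SB-OG and 4.32 on control-OG, came to -0.14 only through the higher background level of control-OG.

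**Figure D5:**
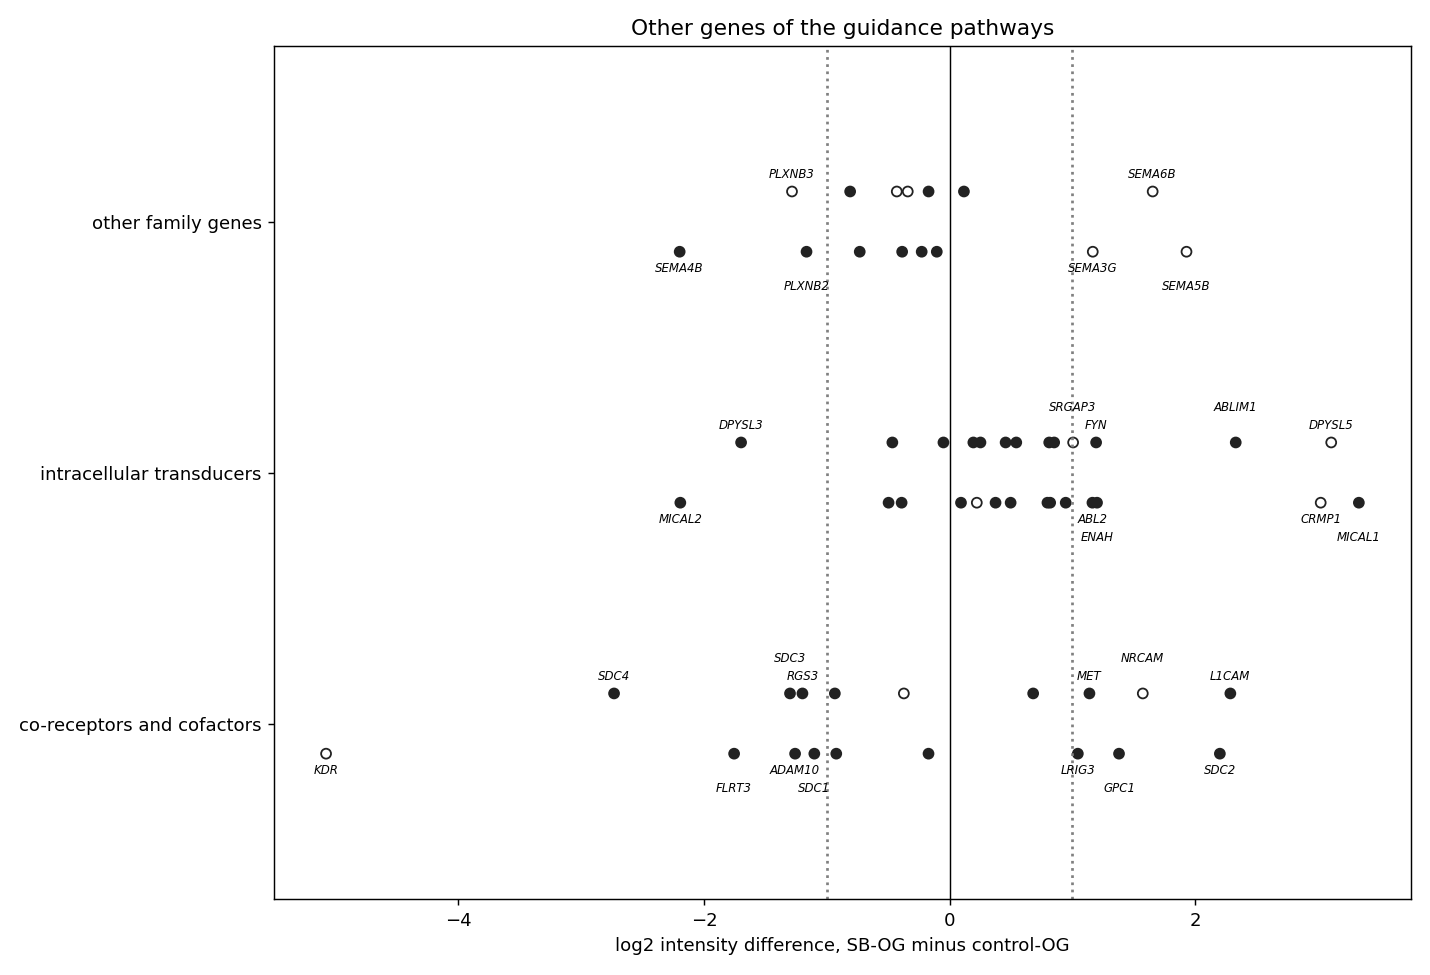
Log2 intensity difference, SB-OG minus control-OG, of 3 lists of other guidance pathway genes, 1 list per row, with points offset vertically in each row for legibility and only genes past 2-fold (dotted lines) named. Filled points were above background on both arrays and open points on 1 (bounds); as plotted, KDR is the lowest at -5.08 and MICAL1 the highest at 3.33.

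Markers of several cell types differed between the arrays beside these genes, and their part in the guidance gene values was not tested. In such bulk RNA, fewer cells of a type and less RNA per cell cannot be told apart. The marker counts stand beside 12.4% higher and 13% lower of all genes past the background filter. Each sum adds the brightest probe set of every marker that has one, those under background included, so a few bright genes can carry it. Of 14 skeletal muscle markers 13 were above background and 12 at least 2-fold higher, with summed intensities of 62356 on SB-OG and 495 on control-OG. MYF5 was the one under background. Of 13 neuron markers 10 were above background, 5 higher (MAP2, SYT1, NEFL, NEFM and DCX) and 1 lower, and ELAVL3, ELAVL4 and RBFOX3 were under background on both. The sums were 12184 on SB-OG and 7280.4 on control-OG. Most of each came from TUBB3, within 2-fold, with 6918 on SB-OG and 4141 on control-OG. The lower neuron marker was STMN2, with 24.3 on SB-OG and 2606 on control-OG. Of 7 neural progenitor markers with a probe set 3 were above background and all 3 higher, but PAX6, SOX1, SOX3 and OTX2 were under background. The sums were 9318 on SB-OG and 410.2 on control-OG, and NES, with 8535 on SB-OG and 321 on control-OG, made up most of both. Neural crest and Schwann cell markers were higher for 3 of 5 above background, with sums of 1511 on SB-OG and 199.9 on control-OG, and SOX10 was under background.

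Of 10 endothelial markers 3 were above background and 2 of these, KDR and TEK, at least 2-fold lower, with sums of 145 on SB-OG and 1424 on control-OG. On SB-OG only PECAM1, at 37.9, was above background, so most of that sum comes from values under it. KDR is also among the co-receptors above. The defining endothelial genes CDH5 and VWF were under background on both arrays, beside the lower values of EFNB2, NRP1 and NRP2, which endothelium also uses. EPHB4, PLXND1 and UNC5B, named above as receptors of endothelium too, were within 2-fold, at 0.29, 0.46 and -0.59 on the log2 scale. Of 9 epithelial markers 4 were above background, 1 higher and 3 lower, with sums of 508 on SB-OG and 16545 on control-OG. The 3 lower were the keratin genes KRT8, KRT18 and KRT19, which made up most of the control-OG sum. The higher was CDH1, with 82.8 on SB-OG and 26.9 on control-OG. EPCAM, CLDN4, CLDN7, ESRP1 and GRHL2 were under background on both arrays. All 13 mesenchymal stromal markers were above background, 1 higher and 9 lower, with sums of 60500.1 on SB-OG and 128890 on control-OG, beside the lower values of SLIT2 and SLIT3. Of 9 pluripotency markers with a probe set 3 were above background, SOX2, DNMT3B and SALL4, with sums of 364 on SB-OG and 252 on control-OG. SOX2 is also counted among the neural progenitor markers, and its other probe set above background came to -0.07 on the log2 scale.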

How the data were processed

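RNA of HUES9 embryoid body outgrowths was read on 1 Affymetrix array per condition, with each sample's title giving its condition. RNA was labelled with biotin, per the labels' protocols. The authors deposited linear intensity values for 54675 probe sets on each array; which software summarised the probes is not stated in the sources used here. With 2% of probe sets trimmed at each end, the mean was 150.02 on both arrays, so the values appear scaled to one level and a change in total RNA would not show. Medians of the log2 values differed by -0.05, and the intensities were used as deposited.

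Gene names came from the array's 2016 annotation, with symbols updated by gene ID, which gave 41091 probe sets with 1 gene and 19775 genes. Background was set on each array at the 95th percentile over 213 probe sets for 172 genes of olfactory and taste receptors, keratin-associated proteins, β-defensins and late cornified envelope proteins, assumed to be unused here. Each gene was read by the probe set brightest on average over both arrays, by log2 value. Counts are of genes 2-fold or more apart. No test was possible with 1 array per condition, and the number of arrays limits the precision. The members and lists were chosen with earlier results of these data known. Of the other lists, up to 6 genes past 2-fold, by size of difference, were to be named. The remaining ones named, and the ligand and receptor pairs, were chosen after their values were seen. Counting was tested on simulated arrays in which only genes well above background were changed, so calls near background and bounds were not covered. Alternatives were quantile normalization, lowess with a span of 0.4, centring, scaling on 18 hybridisation control probe sets, the mean of all probe sets, probe sets not marked _s, _x or _a, values not floored, a 99th percentile background, a pseudocount of 16 and a 3-fold threshold. One floor for both arrays, and a background from protein-coding family genes, were added after seeing the data. Tables were handled with pandas 2.3.3 and numpy 2.4.6 in Python 3.11.15, lowess was run with statsmodels 0.14.6, and figures were drawn with matplotlib 3.10.9.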

Additional observations from a re-analysis of the deposited data

How the results depend on the processing

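The counts of 11 guidance genes at least 2-fold higher and 7 lower in SB-OG were each within 1.5 times of themselves in every alternative run but 1: with the mean of all probe sets of a gene, 7 were higher. Without a floor 13 were higher and 9 lower, beside 15.9% of all genes in each direction, and at 3-fold 8 and 5, beside 6.33% and 6.36%. The median log2 difference of 0.00 moved to 0.48 when SB-OG was scaled on the hybridisation controls, the same shift that this scaling gives every gene, and NRP1 and SEMA5A were then within 2-fold while PLXNC1 and ROBO1 passed it. No member at least 2-fold apart changed sign under any alternative run. Smaller differences did, among them EFNA3, from -0.92 to 0.56, and SEMA7A, from -0.23 to 0.37, with the 99th percentile background. The SB-OG level was then 77.3, above the SB-OG values of both genes, and 32 guidance genes were above background. Without a floor EFNA3, NTN1, PLXNC1 and UNC5C passed 2-fold. EPHA7, PLXNB1, SEMA3D and SEMA3F came within 2-fold with the mean of all probe sets, and EPHA7 and SEMA3E with the 99th percentile background. PLXNC1 reached 2.17 on the log2 scale when probe sets marked _s, _x or _a were left out. Quantile normalization, lowess, centring and one floor for both arrays moved no member by more than the SD of 0.46 between probe sets. No paired analysis was possible because each condition has 1 array. Members with fewer than 2 arrays above background give bounds only, and dim genes cannot be ranked.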

Other observations

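SEMA3B, under background by its own probe set, is also read by a probe set that the annotation shares with the microRNA gene MIR6872. That probe set had 44.4 on SB-OG and 89.1 on control-OG, above the background level on both arrays and just past 2-fold lower in SB-OG. It was used in no count, so SEMA3B is not among the lower genes counted above. Which transcript the shared probe set reads was not tested.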
